A study of Caenorhabditis elegans with 2 samples.

Results

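PUF proteins bind short sites in messenger RNAs and, in most known cases, lower the translation or stability of those messages. In Caenorhabditis elegans they keep germline stem cells dividing, direct the change from sperm to oocytes and hold maternal messages silent in oocytes. The 10 genes described here (puf-3, puf-5, puf-6, puf-7, puf-8, puf-9, puf-11, puf-12, fbf-1 and fbf-2) are the members of the family that were listed by name, out of 19985 annotated protein-coding genes, and they are also all 10 genes whose annotated name begins with puf- or fbf-. The family was chosen by earlier results on these data, in which some of its members had peaks, so the values at gene starts below are a description and carry no test.

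The lists map where SNPC-1.1 (C06A8.2) sat on chromatin in YL482, a stable transgenic strain in which the protein carries GFP-FLAG at its C-terminal end. Whole hermaphrodites were taken as young adults, so germline and somatic cells are mixed, and neither an exact age nor the promoter of the transgene is stated. Sonicated chromatin was precipitated with an anti-GFP antibody (the antibody label itself names snpc-1.1) and sequenced. All animals belonged to a single group, with 2 biological replicates. The control against which the authors called regions was not analysed on its own here. SNPC-1.1 is related to a SNAPc subunit, and SNAPc is best known for binding the promoters of genes for small nuclear RNAs. The authors deposited a list of 1500 reproducible peaks, a pooled list of 30000 regions and lists of 29523 and 26195 regions for replicates 1 and 2, on build ce11. Each region has a signal score on a scale that is not stated, so scores and ranks were read only within a list. A gene was said to have a region when a summit lay within 500 bp of its annotated start.

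Of the 10 PUF genes, 4 had a reproducible peak at the start (puf-3, puf-5, puf-11 and puf-12), against 4.25% of all protein-coding genes. These were also the 4 PUF genes with a region at the start in both replicate lists, where the share of all protein-coding genes was 21.4%. In the pooled list 7 PUF genes had a region, with puf-7, puf-9 and fbf-2 added, against 37.7% of protein-coding genes. The replicate 1 list had a region at 6 PUF genes, against 35.8% of protein-coding genes, and the replicate 2 list also at 6, against 34.8%. The long lists include background regions, per the names the authors gave them. Since the family was picked with such values known, nothing is read from these counts about the family as a whole.

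The sequences under the 4 reproducible peaks at PUF gene starts are shown because they are where SNPC-1.1 signal was highest among the starts of this family. Each line gives 121 bases centred on the reproducible summit, 5′ to 3′ on the strand of the gene, read from the RefSeq WBcel235 genome, whose coordinates are those of ce11. Capitals mark the longest words of at least 7 bases that 3 of the 4 windows share on either strand, a search made after the sequences were seen.
puf-3, chrIV:13512291-13512411, minus strand: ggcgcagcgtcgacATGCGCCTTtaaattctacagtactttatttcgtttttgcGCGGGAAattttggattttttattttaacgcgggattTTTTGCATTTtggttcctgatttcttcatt
puf-11, chrIV:6421356-6421476, plus strand: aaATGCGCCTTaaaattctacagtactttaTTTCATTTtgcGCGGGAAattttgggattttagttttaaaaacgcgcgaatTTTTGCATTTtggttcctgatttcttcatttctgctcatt
puf-5, chrII:8575377-8575497, plus strand: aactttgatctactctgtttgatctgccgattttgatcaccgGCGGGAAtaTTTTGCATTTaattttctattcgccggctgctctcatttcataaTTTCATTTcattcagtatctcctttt
puf-12, chrII:10100065-10100185, plus strand: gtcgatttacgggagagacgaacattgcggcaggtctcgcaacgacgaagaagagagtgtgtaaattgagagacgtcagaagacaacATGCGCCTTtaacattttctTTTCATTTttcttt

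The windows of puf-3, puf-11 and puf-5 share 2 of the marked words. GCGGGAA begins 195 bp upstream of the start of puf-3, 188 bp upstream at puf-11 and 122 bp upstream at puf-5, which is 6, 19 and 18 bp upstream of the summits. TTTTGCATTT begins 158, 148 and 113 bp upstream of the same 3 starts. The word ATGCGCCTT was found at puf-3, puf-11 and puf-12, at 235, 227 and 158 bp upstream. The word TTTCATTT was found at puf-5, puf-11 and puf-12, at 69, 199 and 138 bp upstream. All of these matches read on the strand of the gene.

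Among windows of 121 bases at 1473 nuclear reproducible peaks, GCGGGAA occurred on either strand in 4.01%, TTTTGCATTT in 0.679%, ATGCGCCTT in 2.17% and TTTCATTT in 3.19%. In the windows from 250 bp before to 50 bp after 19983 protein-coding starts, the shares were 3.22%, 1.14%, 0.691% and 13.0%. These windows have 300 bases, so a word has more room in them and the shares are not like for like with those at peaks. Of the start windows of the other 6 PUF genes, none held GCGGGAA or TTTTGCATTT, and that of puf-7 held both ATGCGCCTT and TTTCATTT. The words were picked because these windows share them, and puf-3 and puf-11 are close copies of each other upstream as well, so their matches are not separate observations.

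Words linked to SNAPc at other genes were searched too. The 3 words of 8 bases found most often within 100 bp upstream of SL2 and snRNA genes with a reproducible peak were CGGAACCC, GCGGAACC and CGGGTTCC, which overlap one another in part and were in 28, 27 and 22 of 76 distinct windows. None of the 4 PUF summit windows and none of the 10 PUF start windows held any of them, while 11.2%, 11.3% and 6.79% of all reproducible peak windows did. Those peak windows include the peaks at the SL2 and snRNA genes that were used to pick the words. At protein-coding starts the words were rare, in 0.265%, 0.350% and 0.315% of windows. CTGTTTCA, the core of the motif upstream of piRNA genes, was in the start window of puf-5 alone, against 2.32% of protein-coding start windows, and in no PUF summit window, against 0.272% of peak windows. TATAAA was in the start windows of fbf-1 and fbf-2, against 38.0% of protein-coding ones, and in no PUF summit window, against 10.8% of peak windows. The absence of these letters from a window says nothing about which factors bind there.

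The summit windows of the 4 genes held more A and T than the median peak window, with 62.0% at puf-3, 66.9% at puf-11, 63.6% at puf-5 and 57.0% at puf-12, against 53.7%. That median covers all nuclear reproducible peaks, not only those at protein-coding starts. The start windows of the 10 PUF genes had between 62.3% (puf-3) and 70.7% (puf-5) A and T, against a median of 65.7% for protein-coding genes, which lies inside the PUF range. Of the 4 summit windows only that of puf-11 was above this 65.7%, though start windows are longer.

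Both oocyte genes puf-3 and puf-11, which encode a pair of near-identical proteins that act in the germline, had peaks in the upper part of the reproducible list. At puf-3 (WBGene00004239, chromosome IV, 13510307 to 13512162, minus strand) the signal was 43.0 in replicate 1, 81.5 in replicate 2 and 123 in the pooled list. It ranked 535 of 29523, 367 of 26195 and 373 of 30000 in these lists. At puf-11 (WBGene00022257, chromosome IV, 6421585 to 6423497, plus strand) the signal was 58.6 in replicate 1, 49.8 in replicate 2 and 110 in the pooled list, with ranks of 314, 904 and 466. Thus puf-11 stood above puf-3 in the replicate 1 list and below it in the replicate 2 and pooled lists. With 2 replicates, no order between them was shown.

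The puf-3 summit lay 189 bp upstream of the gene in the pooled list, with 206 and 210 bp in replicates 1 and 2. Replicate 1 also listed a weak second region there (signal 7.72, rank 21284), with its summit in the coding sequence, 442 bp downstream of the gene start. No other annotated start was within 500 bp of it. The puf-3 gene sits inside the gene afmd-2, which runs on the opposite strand from 13509224 to 13513433, and the summit is in an intron of afmd-2. The puf-11 summit lay 169 bp upstream in the pooled list and 177 and 191 bp upstream in replicates 1 and 2, in intergenic sequence. The only other start within 500 bp was that of the pseudogene WBGene00044752, 216 bp from the pooled summit on the other strand.

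The coding sequences of puf-3 and puf-11 are 91.5% identical over 1500 aligned bases, and the 500 bp upstream of their starts are 88.6% identical over 456 aligned bases. Within 500 bp of the start, 98.9% of the words of 36 bases at puf-3 and 100% at puf-11 occur only once in the genome. The read length and the treatment of reads with several matches are unknown here, so whether reads of the copies were mixed was not tested.

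The gene puf-5 (WBGene00004241, chromosome II, 8575541 to 8577787, plus strand), whose product represses maternal messages such as glp-1 in late oocytes, had the highest signal of the family in the pooled list. The signal was 41.4 in replicate 1, 94.4 in replicate 2 and 134 in the pooled list, with ranks of 572, 300 and 331. It was the highest PUF gene in replicate 2 but below puf-11 and puf-3 in replicate 1. The summit was at the same base, 104 bp upstream of the start, in every list. It was intergenic, with no other start within 500 bp, and all words of 36 bases within 500 bp of the start occur once.

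The partners of puf-5 in late oocytes, puf-6 and puf-7, differed from it in the lists. At puf-6 (WBGene00004242, chromosome II, 13039792 to 13043445, minus strand) no list held a region within 500 bp of the start. At puf-7 (WBGene00004243, chromosome IV, 5486713 to 5490322, plus strand) there was no region in replicate 1, a signal of 17.0 in replicate 2 and 19.5 in the pooled list, just below that list's median of 20.5. That summit lay 239 bp upstream of puf-7 and 216 bp from the start of snpc-3.1, a gene for another SNAPc subunit homologue that runs the other way, so the region cannot be given to either gene. The coding sequences of puf-6 and puf-7 are 98.5% identical over 1455 bases and their upstream 500 bp are 96.6% identical. Only 45.2% of the 36-base words within 500 bp of the start of puf-6, and 38.5% at puf-7, occur once, against 98.9% or more at puf-3, puf-5, puf-11 and puf-12. The share was also 100% at puf-8 and puf-9, which had no reproducible peak. The part of repeated sequence in the low values at puf-6 and puf-7 was not tested.

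**Figure D1:**
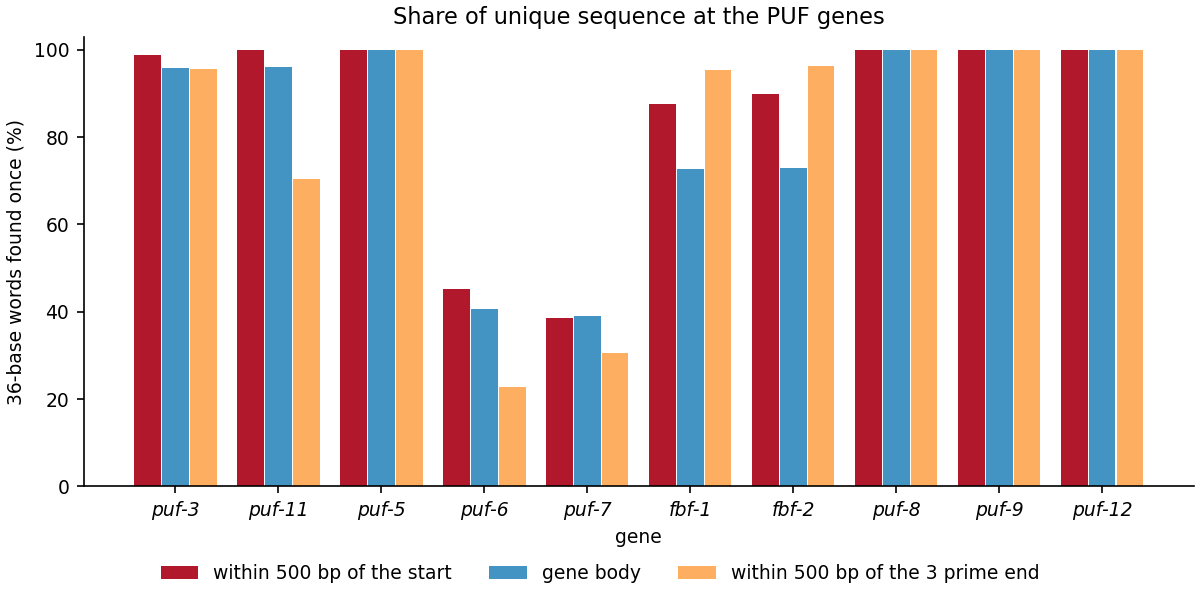
Share of 36-base words that occur once in the genome (vertical axis, percent) for the 10 PUF genes, within 500 bp of the start (red), over the gene body (blue) and within 500 bp of the 3 prime end (orange). The puf-6 and puf-7 bars lie between 22.8% and 45.2%, while puf-5, puf-8, puf-9 and puf-12 stand at 100% in all 3 windows.

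The stem cell regulators fbf-1 and fbf-2, which encode a nearly identical pair of proteins, had at most weak regions. At fbf-1 (WBGene00001401, chromosome II, 6078263 to 6080843, minus strand) no list held a region at the start. At fbf-2 (WBGene00001402, chromosome II, 6088863 to 6091480, minus strand) the signal was 9.83 in replicate 1 and 21.3 in the pooled list, with none in replicate 2. Its pooled rank was 13707 of 30000, and the summit lay 68 bp upstream of fbf-2 and 219 bp from the start of nspg-3 on the other strand. The coding sequences are 94.4% identical over 1842 aligned bases, but at the starts 87.7% (fbf-1) and 89.8% (fbf-2) of 36-base words occur once, more than at puf-6 and puf-7.

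The remaining germline member, puf-8 (WBGene00004244, chromosome II, 7296110 to 7298247, minus strand), a regulator of germ cell proliferation and fate, had a region at the start in replicate 2 alone. Its signal was 17.1, at rank 8133, with the summit 105 bp upstream. In replicate 1 the closest region, with a signal of 8.36, had its summit 567 bp inside the gene, just outside the window, and in the pooled list the closest, with 22.3, was 730 bp inside. For puf-9 (WBGene00004245, chromosome X, 5841592 to 5845987, plus strand), which acts in developmental timing in the soma, the signal was 14.3 in replicate 1 and 23.0 in the pooled list. Its summit lay 440 bp upstream in the pooled list and 441 bp upstream in replicate 1, just inside the window. In replicate 2 the nearest summit, with a signal of 10.2, was 525 bp upstream, just outside it. The pooled summit was 33 bp from the start of the noncoding gene W06B11.9 and 198 bp from that of W06B11.7, both nearer than puf-9.

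The fourth gene with a reproducible peak, puf-12 (WBGene00014165, chromosome II, 10100310 to 10103061, plus strand), is the divergent member of the family, related to nucleolar Puf proteins of yeast and humans. The signal was 19.4 in replicate 1, 43.0 in replicate 2 and 62.2 in the pooled list, with ranks of 2528, 1208 and 1364. Its signal was the lowest of the 4 in each of these lists, and its rank of 1364 is near the end of the 1500 reproducible peaks, whose lowest signal is 58.8. The highest pooled signal at a PUF start that was not a reproducible peak was 23.0, at puf-9. The puf-12 summit lay 185 bp upstream in the pooled list, and 175 and 161 bp upstream in replicates 1 and 2, inside an exon of the noncoding gene ZK945.13. It was 27 bp from the start of ZK945.13, 65 bp from that of the noncoding gene ZK945.12 and 271 bp from that of the proteasome subunit gene pas-7, and the last 2 of these run on the other strand. Counting each summit only for its nearest start therefore left 3 PUF genes with a reproducible peak, against 2.69% of protein-coding genes.

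**Figure D2:**
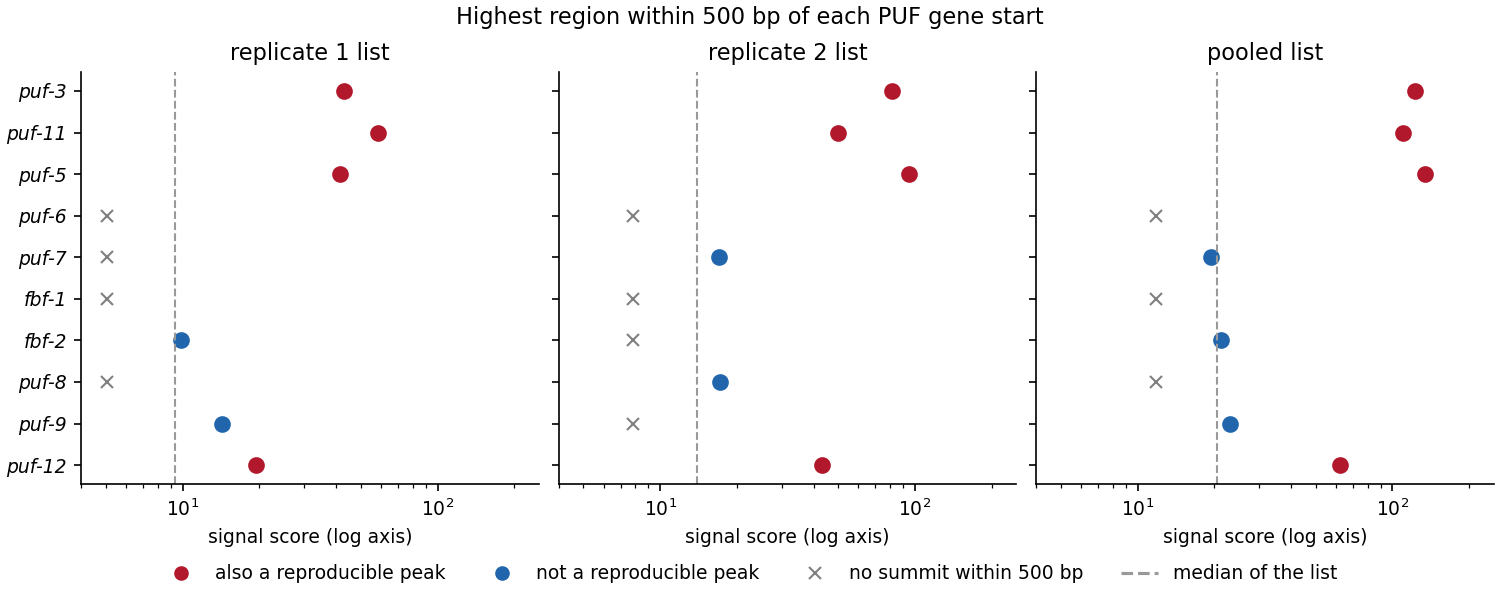
Signal score of the highest region within 500 bp of each PUF gene start (horizontal log axis, authors' score with no stated unit) in the replicate 1, replicate 2 and pooled lists. Each point is 1 region; red points are genes with a reproducible peak, blue points are genes without one, grey crosses mark genes with no summit in the window and are placed left of the lowest score in the list, and the dashed line is the list median (9.31, 14.0 and 20.5). The red points of puf-3, puf-5, puf-11 and puf-12 lie right of the line and of every blue point in all 3 panels. In the pooled panel this follows from the lists, since the reproducible peaks are the 1500 highest pooled regions.

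At the 4 genes with a reproducible peak the median pooled signal was 117, against 80.0 over the 850 protein-coding genes with such a peak. In order of signal among those 850 genes, puf-5 was at place 124, puf-3 at 143, puf-11 at 194 and puf-12 at 762. The protein-coding genes next above and below in signal were cec-5 (135) and F32H2.10 (134) for puf-5, K08B5.1 (123) and egl-17 (123) for puf-3, F55A11.11 (111) and nasp-2 (110) for puf-11, and gdi-1 (62.2) and R04F11.2 (62.1) for puf-12. In the pooled list the 7 PUF genes with a region had a median of 62.2, against 24.6 over 7533 protein-coding genes. These medians cover only genes that passed into a list.

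The 4 reproducible summits lay in a stretch from 189 to 104 bp upstream of the starts. They are not 4 separate observations of a position, since puf-3 and puf-11 are close copies upstream. The puf-12 summit is also nearer to the start of ZK945.13 (27 bp) than to that of puf-12 (185 bp). Over the 850 protein-coding genes the median was 189 bp upstream, and 193 of the genes had their summit within that same stretch. The replicate 1 and 2 summits were 4 bp apart at puf-3, at the same base at puf-5, and 14 bp apart at puf-11 and at puf-12. Close summits are likely at these genes in any case, since they were taken for having a reproducible peak. For the 4272 protein-coding genes with a summit in both replicate lists the median distance was 79.0 bp, a set that includes many weak regions. There the highest region of each list was taken, which need not be the same region, so the values are not like for like. The distance over the 850 genes with a reproducible peak was not computed.

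**Figure D3:**
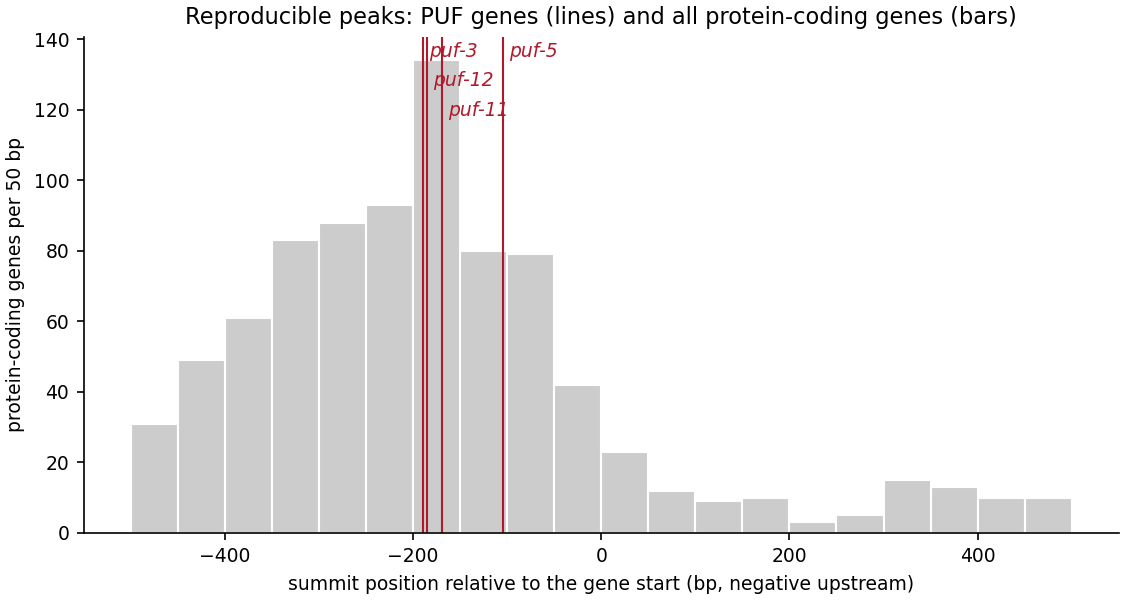
Summit position relative to the gene start (horizontal axis, bp, negative upstream) for reproducible peaks: red lines are puf-3, puf-12, puf-11 and puf-5, and grey bars count protein-coding genes per 50 bp (vertical axis, 850 genes). The PUF summits, between 189 and 104 bp upstream, fall in and next to the tallest bar.

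The 3′ ends of the genes, which the choice of members did not use, were examined after the lists had been seen. A pooled summit lay within 500 bp of the annotated 3′ end at 6 of the 10 PUF genes (puf-3, puf-5, puf-8, puf-9, puf-11 and puf-12), against 38.7% of protein-coding genes. In both replicate lists this held for 3 PUF genes (puf-3, puf-5 and puf-12), against 21.6%, and in the reproducible list for puf-3 alone, against 2.68%. All 4 genes with a reproducible peak at the start also had a pooled region at the 3′ end, and 73.4% of the 850 protein-coding genes with a start peak did too. No test was made of these counts, which rest on few genes.

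At puf-3 the region at the 3′ end had a signal of 30.0 in replicate 1, 59.4 in replicate 2 and 83.3 in the pooled list, where it ranked 784, with its summit 21 bp inside the 3′ end. That is below the 123 at the start of the same gene. At puf-5 the 3′ signal was 9.37 in replicate 1, 36.3 in replicate 2 and 39.4 in the pooled list, with the pooled summit 37 bp inside the end. The start of the downstream gene F54C9.9 was also within 500 bp of that summit. At puf-12 it was 9.78 in replicate 1, 18.2 in replicate 2 and 27.2 in the pooled list, 19 bp past the end, in the 3′ UTR of ZK945.4, a gene that converges on puf-12.

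The other 3′ regions were seen in a single replicate. At puf-8 the signal was 24.4 in replicate 1 and 47.3 in the pooled list, 8 bp past the end and within 500 bp of the start of C30G12.6, while neither of these lists held a region at the start of puf-8. At puf-11 it was 21.3 in replicate 2 and 28.1 in the pooled list, 78 bp past the end, where 70.5% of 36-base words occur once. At puf-9 it was 11.8 in replicate 2 and 22.3 in the pooled list, 201 bp past the end. The median distance of the 6 pooled summits from the 3′ end was 29.0 bp, against 181 bp for the 7733 protein-coding genes with a summit in that window. In replicate 1 the median over 6 PUF genes was 93.5 bp, with summits 126 bp past the end at puf-3 and 138 bp past it at puf-5, against 199 bp for protein-coding genes. In replicate 2 it was 22.5 bp over 6 PUF genes, against 192 bp. Those 6 genes differ between the replicates, and only puf-3, puf-5 and puf-12 are in both sets. At these 3 the summits lay 126, 138 and 28 bp from the end in replicate 1. In replicate 2 they lay 21, 44 and 20 bp from it, so at these genes the closeness was less in replicate 1. Weak regions with no pooled counterpart were listed at the 3′ ends of puf-7 (8.75, replicate 1), fbf-1 (6.75, replicate 1) and fbf-2 (11.6, replicate 2), and puf-6 had none.

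**Figure D4:**
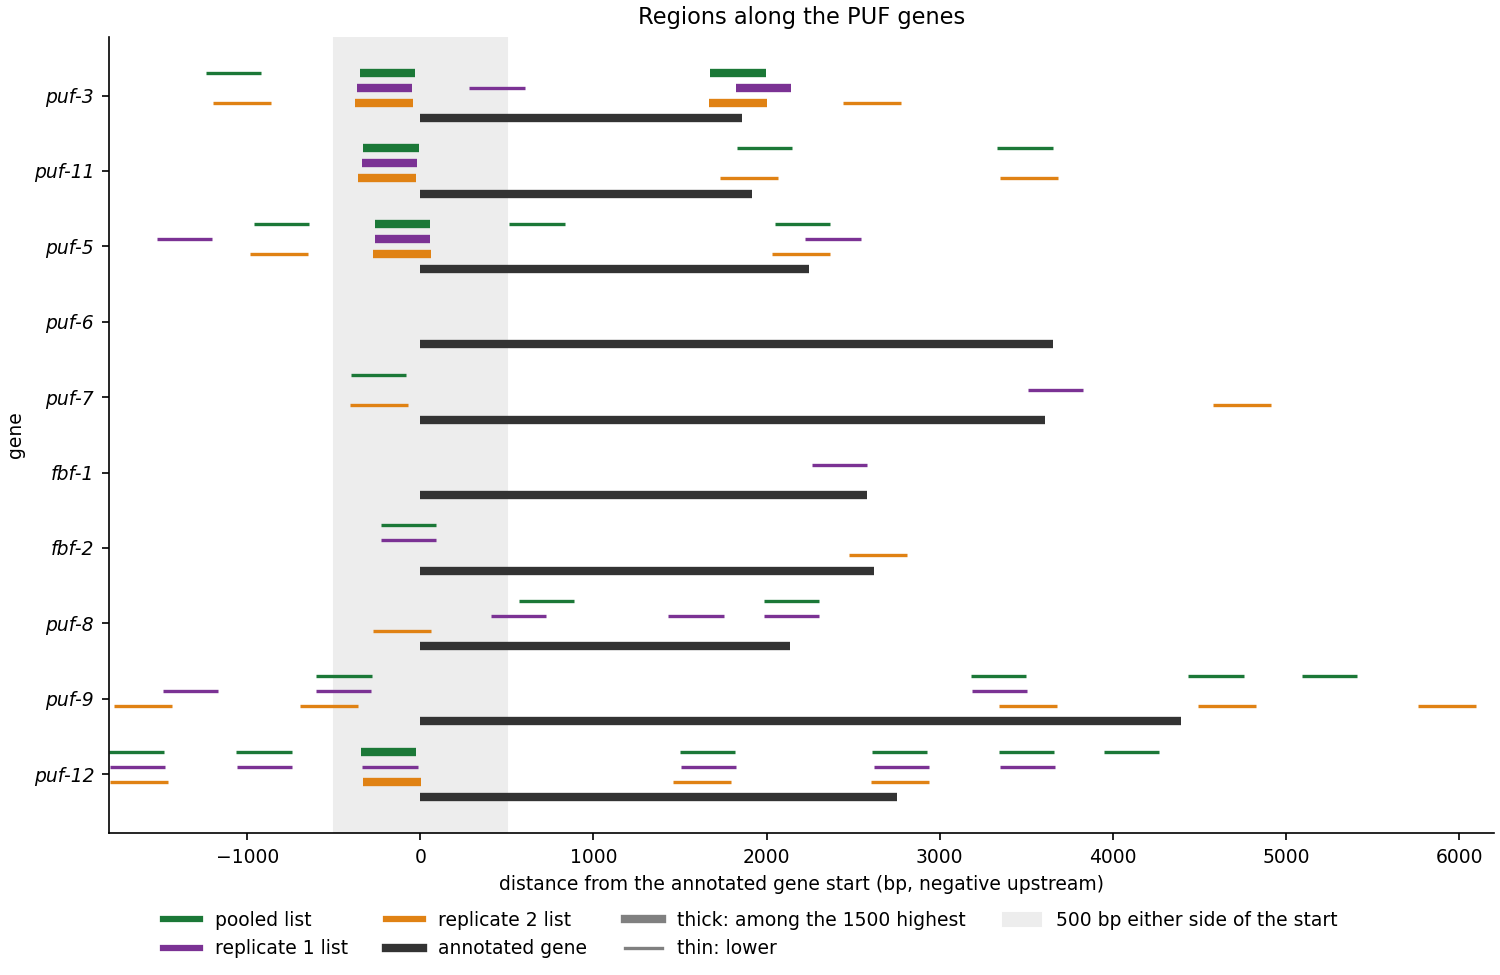
Regions of the pooled (green), replicate 1 (purple) and replicate 2 (orange) lists along the 10 PUF genes, drawn by distance from the annotated start (horizontal axis, bp, transcription to the right); black bars are the genes, thick lines are among the 1500 highest of their list and the grey band is 500 bp either side of the start. Thick lines stand just upstream of puf-3, puf-11, puf-5 and puf-12 (where that of replicate 1 is thin), and also at the 3′ end of puf-3, while the puf-6 row has none.

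Of the family, puf-3, puf-7 and puf-11 lie on chromosome IV, which carries most piRNA genes, and all 3 are inside its published piRNA-rich domains, puf-3 close to an edge. No piRNA gene started within 500 bp of any of the 10 PUF starts. The nearest was 31785 bp from puf-3, 4039 bp from puf-7 and 4149 bp from puf-11. On other chromosomes it was 7574 bp from puf-5, 8068 bp from puf-9 and 15354 bp from puf-6, nearer than at puf-3. It was farther than at puf-3 for puf-8, puf-12, fbf-1 and fbf-2. The share of protein-coding genes inside the domains was not counted.

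Genes that work with the PUF proteins or are controlled by them were examined with the same rule. Of 19 annotated genes for cofactors and partners, 1 had a reproducible peak, lst-1, whose product binds FBF in germline stem cells (signal 72.9, summit 55 bp upstream), while 15 had a pooled region and 12 a region in both replicates, against 37.7% and 21.4% of protein-coding genes. Of 18 genes whose messages PUF proteins are known or thought to bind, 1 had a reproducible peak, syp-3, a synaptonemal complex gene (signal 341, summit 69 bp from the start, with a weaker peak of 91.5 at 273 bp). The weaker summit was nearer to the start of F39H2.3, at 258 bp, and the stronger one lay 462 bp from it. A pooled region was found at 12 of the 18 target genes and a region in both replicates at 9, against the same 37.7% and 21.4%. A reproducible peak was thus at 1 of 19 cofactor genes and 1 of 18 target genes, against 4.25% of protein-coding genes. The 4 of 10 PUF genes cannot be set against these counts, since that family was picked with its peaks known. Differences between lists were not tested.

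A list of 18 genes for other proteins that bind RNA in oocytes or the early embryo held 5 with a reproducible peak, 15 with a pooled region and 14 with a region in both replicates, against 4.25%, 37.7% and 21.4% of protein-coding genes. The 5 were mex-5 (signal 158), a determinant of embryonic polarity, mex-1 (118), atx-2 (117), the ataxin-2 homologue, pos-1 (90.4) and oma-2 (67.7), a regulator of oocyte maturation. Their summits lay between 71 bp (atx-2) and 381 bp (oma-2) upstream, with mex-1 at 189 bp like puf-3. The mex-5 summit was nearer to the start of rec-8 (222 bp) than to mex-5 (308 bp). This list shares members with the others, and peaks at mex-5, pos-1 and oma-2 were known when it was made, so its count is no independent evidence. In it, as among the PUF genes, several members had no reproducible peak, among them oma-1 (pooled signal 53.1), gld-1 (53.1) and spn-4 (53.9).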

How the data were processed

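ChIP-seq peak lists of 2 biological replicates of 1 group were used. Per the text files the authors deposited, each replicate alignment, and both together, were set against that of a control to call regions, and a set of peaks passed an irreproducible discovery rate threshold. The aligner, the peak caller, its threshold, the read length and the depth were not given in the sources used here. Each region's deposited score (the authors' signal value) was read only within a list. The 1500 reproducible peaks are the 1500 highest pooled regions, so the reproducible and pooled values are the same measurement. The lists on the older build were not used, and the control was not analysed on its own.

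Summits were placed by adding the authors' offset column to the region's first base and were compared with gene starts of Ensembl release 115 (WBcel235). The PUF genes and the other lists were chosen with earlier results of these data known. Named genes were all PUF genes, genes with a start near their summits, list members with a reproducible peak, and the genes next in signal; oma-1, gld-1, spn-4 and the 3′ end neighbours were added after their values were seen. The listed name eft-3 was not found. Words of 36 bases were counted on both strands of the whole genome; sequences were aligned with Biopython 1.88 and tables made with pandas 2.3.3 in Python 3.11.15. The search for summits near starts was tested on simulated data with planted summits.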

Additional observations from a re-analysis of the deposited data

How the results depend on the processing

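The number of PUF genes with a reproducible peak at the start was between 3 and 4 under the 6 alternatives. It was 4 with windows of 200 bp (1.96% of protein-coding genes) and 1000 bp (5.78%). It was also 4 with any overlap (4.76%) and any transcript start (4.53%). It was 3 with nearest start only (2.69%) and with the 750 highest peaks (1.81%). The number with a region in both replicates was between 3 and 6 under its alternatives, and 6 when either replicate was left out, against 34.8% of protein-coding genes in replicate 2 alone and 35.8% in replicate 1 alone. The number in both replicates was 3 with a window of 200 bp (7.98% of protein-coding genes) and with nearest starts only (16.4%). It was also 3 among the 1500 highest regions of each replicate (2.48%). With a window of 1000 bp, or any overlap, puf-8 and puf-9 joined the set in both replicates, against 33.9% and 25.8% of protein-coding genes. The number with a pooled region was 7, with 5 in a window of 200 bp (18.9% of protein-coding genes) and 8 in one of 1000 bp (52.4%). It was 4 with nearest starts only (puf-3, puf-5, puf-11 and fbf-2), against 32.2% of protein-coding genes, since the summits at puf-7, puf-9 and puf-12 are nearer to other starts. It was also 4 among the 10000 highest pooled regions (puf-3, puf-5, puf-11 and puf-12), against 19.5%. In all of these alternatives puf-5 and puf-11 were among the genes counted, and puf-3 was missing only from the set in both replicates with a window of 200 bp, because its replicate summits lie 206 and 210 bp upstream. Taking the nearest summit in place of the highest changed none of the 23 pairs of member and list. No paired analysis was possible because there is only 1 group. Read depth is unknown, so how far it limits the weak regions cannot be given.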
